A study of Homo sapiens with 12 samples.

Results

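The genes described here are 37 named members of the hypoxia-inducible factor (HIF) pathway and of its targets outside glycolysis and angiogenesis. They were chosen by gene symbol, out of 19775 genes with a probe set of a single symbol. Transcripts were measured on 12 one-colour arrays of MDA231 (MDA-MB-231), an established line of human triple-negative breast cancer cells, with 3 arrays in each of 4 groups. Cells of the control group expressed a scrambled hairpin (scramble). The ETX group had the scrambled hairpin plus ETX, a letter code read here as etomoxir, which inhibits CPT1. The remaining groups expressed a hairpin to CPT1 (shCPT-1) or to CPT2 (shCPT-2), delivered with pGIPZ lentivirus. CPT1 and CPT2 are the carnitine palmitoyltransferases through which long-chain fatty acids reach the mitochondrial matrix to be oxidised. How many hairpins were used per gene, whether clones were picked, and the dose and duration of ETX behind these arrays were not stated in the labels used here. Separate cultures are not named for the 3 arrays of any group, and the p-values then reflect only array-to-array spread, which may be technical. In such bulk RNA, fewer cells of a kind and less RNA per cell cannot be told apart.

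HIF is a transcription factor of an alpha subunit, HIF1A or EPAS1, and the constant partner ARNT. In the presence of oxygen the prolyl hydroxylases EGLN1, EGLN2 and EGLN3 mark the alpha subunit, the VHL ubiquitin ligase complex then sends it to the proteasome, and the asparaginyl hydroxylase HIF1AN blocks its coactivators. When oxygen is short the alpha subunit persists and induces genes for glycolysis, vessel growth, collagen processing, pH control, mitophagy and chromatin, and hydroxylase and repressor genes that act as feedback. This control acts mostly on the alpha subunit's protein, which these arrays do not measure.

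Values are log2 intensities of a probe set. Array medians lay between 6.23 and 6.27 on that scale. Of the 37 genes, 36 had at least 1 probe set of a single symbol, 110 in all, and CA9, the tumour carbonic anhydrase, was not analysed here. Probe sets had to lie above the array median on 3 or more arrays, and the brightest such probe set represented its gene, which left 34 members among 12886 tested genes. EGLN2 and EGLN3 did not pass that filter, and PPFIA4 passed it through its 3 shCPT-1 arrays alone, so its difference from the other groups is partly a result of the filter. Changes are log2 differences with the standard error (SE) of a limma fit over all 12 arrays, and "rose", "fell" and "called" refer to a Benjamini-Hochberg adjusted p under 0.05 over the 12886 genes. CPT1A fell in shCPT-1 (-1.59 ± 0.08), and rose with ETX (1.11 ± 0.08); CPT2 fell in shCPT-2 (-1.0 ± 0.10). Of the genes set as high in this mesenchymal-like line 7 of 7 passed the filter, at a mean log2 intensity per gene of 12.16 to 12.27 on every array. One of them, TGFBI, had group means of only 7.81 to 8.40. Of the genes set as low in the line 6 of 9 also passed, at 9.43 to 9.67 per gene. Among these KRT18 had group means of 12.39 to 12.85, so the low set was not uniformly low. Defining markers of leukocytes, endothelium and fibroblasts passed for 1 of 6, 3 of 5 and 3 of 6 genes, at means per gene of 6.28 to 7.12. The endothelial genes were lower in both knockdowns, at 6.46 to 6.59 against 6.79 to 6.96 in scramble, and their part in the changes was not tested. The actin control's log2 signal at the 3′ end less that at the 5′ end, which reads RNA integrity or labelling, was 2.07 ± 0.27 (SD, n = 3) in scramble, 1.75 ± 0.06 with ETX, 1.73 ± 0.23 in shCPT-1 and 1.68 ± 0.23 in shCPT-2. Its part in the changes against scramble was not tested beyond its use as a covariate.

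Most members were higher in shCPT-1 and most called members were lower in shCPT-2; both are set against the same scramble arrays. In shCPT-1, 23 of the 34 members rose and 3 fell, where 23.1% of all tested genes were called higher and 18.0% lower. Without PPFIA4, which the filter kept through its shCPT-1 arrays, 22 of 33 rose. In shCPT-2, 4 rose and 18 fell, against 25.6% and 20.5% of all genes. With ETX, 11 rose and 7 fell, against 21.9% and 19.4% of all genes. The median change of the members was 0.30 in shCPT-1, -0.22 in shCPT-2 and 0.025 with ETX, and that of all genes was 0.0075, 0.0046 and -0.013. Without the filter, which brings in EGLN2 and EGLN3, the counts over 36 members were 23 higher and 4 lower in shCPT-1, 3 and 19 in shCPT-2, and 10 and 5 with ETX. With the actin signal as a covariate 4 members were called lower with ETX and 1 in shCPT-1, and 4 were called lower with ETX when ETX replicate 2 was left out. The shares of all genes given above belong to the main fit and not to these alternative fits. The group with the highest mean was shCPT-1 for 25 of the 34 members (73.5%, 23.8% of all tested genes), PPFIA4 among them. The group with the lowest was shCPT-2 for 18 (52.9%, 23.5% of all tested genes). The moderated F test over the 4 groups called 32 of the 34 members, where 69.8% of all genes were called; HIF1AN and WSB1 did not pass.

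HIF binds short hypoxia response elements, whose core is ACGTG or GCGTG. Promoter windows from RefSeq (GRCh38.p14, 250 bases before to 50 after a gene's start) were found for 30 of the 37 members, 42 windows in all, because some genes have several starts and their windows can overlap. Of these, 33 (78.6%) held ACGTG or GCGTG on either strand, which is met in 59.5% of the windows of tested genes and in 48.4% of all 35116 windows. The E-box CACGTG, which BHLHE40, BHLHE41 and the MYC network bind, reads as ACGTG on both strands, and was in 11 windows (26.2%), in 9.24% of windows of tested genes and in 7.26% of all. A match describes the letters and not a bound site. The windows of 4 members are shown because they carry the contrast of the data: DDIT4, AK4 and P4HA1 differed most by their adjusted p between the knockdowns, and LOX was called higher in both. Capitals mark both cores on either strand, in windows read 5′ to 3′ along the gene's own strand, at chr10:72273674-72273973, plus strand for DDIT4, chr1:65147302-65147601, plus strand for AK4, chr10:73096817-73097116, minus strand for P4HA1 and chr5:122078210-122078509, minus strand for LOX.
DDIT4: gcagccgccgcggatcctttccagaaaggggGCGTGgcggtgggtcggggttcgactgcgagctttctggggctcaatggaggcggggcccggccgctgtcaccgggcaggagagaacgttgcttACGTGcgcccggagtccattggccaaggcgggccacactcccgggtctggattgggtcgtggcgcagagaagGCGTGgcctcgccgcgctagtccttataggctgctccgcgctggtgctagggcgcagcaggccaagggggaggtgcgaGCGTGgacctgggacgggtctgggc
AK4: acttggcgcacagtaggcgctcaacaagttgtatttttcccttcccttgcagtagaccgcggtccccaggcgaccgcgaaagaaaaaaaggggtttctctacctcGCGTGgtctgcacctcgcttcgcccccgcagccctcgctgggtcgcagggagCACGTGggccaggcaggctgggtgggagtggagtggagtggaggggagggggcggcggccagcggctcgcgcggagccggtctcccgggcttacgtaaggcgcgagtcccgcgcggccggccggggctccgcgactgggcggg
P4HA1: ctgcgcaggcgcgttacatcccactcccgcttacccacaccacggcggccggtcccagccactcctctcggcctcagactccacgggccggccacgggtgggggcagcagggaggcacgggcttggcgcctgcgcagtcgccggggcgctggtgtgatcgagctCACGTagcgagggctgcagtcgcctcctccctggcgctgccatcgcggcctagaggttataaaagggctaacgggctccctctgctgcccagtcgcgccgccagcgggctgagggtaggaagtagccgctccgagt
LOX: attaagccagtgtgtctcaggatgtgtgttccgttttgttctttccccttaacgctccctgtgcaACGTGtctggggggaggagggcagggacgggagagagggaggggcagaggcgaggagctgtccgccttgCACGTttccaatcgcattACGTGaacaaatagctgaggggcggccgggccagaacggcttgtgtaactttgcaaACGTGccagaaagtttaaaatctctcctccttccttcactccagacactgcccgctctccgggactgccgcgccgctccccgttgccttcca
The DDIT4 window holds 4 matches, 1 of ACGTG and 3 of GCGTG. In AK4 there are 3, of which 2 are the strands of 1 E-box. P4HA1 has 1 and LOX has 4, all ACGTG. LOX has 2 further windows, with 1 ACGTG and 1 GCGTG each, and AK4 has 3 further windows, with 1 to 3 matches, so the counts depend on the start chosen.

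Among the oxygen-sensing genes, the transcripts of both alpha subunits were lower in shCPT-2. HIF1A read 12.71, 12.80 and 12.84 in scramble, 12.84, 12.83 and 12.74 with ETX, 12.94, 12.84 and 12.78 in shCPT-1, and 11.88, 11.50 and 11.62 in shCPT-2. The 3 shCPT-2 arrays lay below all others and the other groups overlapped. HIF1A fell 2.17-fold in shCPT-2 (-1.12 ± 0.08, adjusted p = 5.06e-07). Neither 0.072 ± 0.08 in shCPT-1 nor 0.019 ± 0.08 with ETX passed. EPAS1, the second alpha subunit (HIF-2 alpha), read 10.18, 10.18 and 10.35 in scramble, 10.79, 10.80 and 10.77 with ETX, 10.68, 10.52 and 10.40 in shCPT-1, and 9.41, 9.16 and 9.29 in shCPT-2. No group overlapped another: ETX was highest, shCPT-1 next, then scramble, then shCPT-2. EPAS1 fell 1.93-fold in shCPT-2 (-0.95 ± 0.08, adjusted p = 1.3e-06) and rose with ETX (0.55 ± 0.08, adjusted p = 0.000272) and in shCPT-1 (0.29 ± 0.08, adjusted p = 0.0102). The shCPT-1 rise became 0.17 and was no longer called with the actin covariate.

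ARNT, the partner of both, read 8.18, 8.16 and 8.13 in scramble, 8.17, 8.06 and 8.12 with ETX, 8.17, 8.23 and 8.26 in shCPT-1, and 7.95, 8.02 and 7.97 in shCPT-2. The shCPT-2 arrays were again the lowest, by a small margin, and ARNT fell there (-0.18 ± 0.04, adjusted p = 0.00587), a call lost with the mean of its 4 kept probe sets (-0.088) and with the actin covariate (-0.14). VHL, the ubiquitin ligase subunit that recognises hydroxylated HIF, read 7.56, 7.62 and 7.54 in scramble, 7.63, 7.64 and 7.55 with ETX, 7.81, 7.77 and 7.74 in shCPT-1, and 7.18, 7.22 and 7.25 in shCPT-2. Its groups did not overlap apart from scramble and ETX, and it fell in shCPT-2 (-0.36 ± 0.04, adjusted p = 3.28e-05) and rose in shCPT-1 (0.20 ± 0.04, adjusted p = 0.00337). HIF1AN read 9.25, 9.19 and 9.11 in scramble, 9.08, 9.14 and 9.0 with ETX, 9.05, 9.23 and 9.26 in shCPT-1, and 9.10, 9.22 and 9.13 in shCPT-2. All its groups overlapped and it was called in none of the 5 comparisons; its difference between the knockdowns was -0.029 ± 0.07, with a 95% interval of -0.17 to 0.11. A dimmer kept probe set of HIF1AN, tested on its own, was called higher in shCPT-1 (0.26) and in shCPT-2 (0.20).

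EGLN1, the main prolyl hydroxylase and itself a HIF target, read 10.92, 10.89 and 11.03 in scramble, 11.01, 11.03 and 11.04 with ETX, 11.19, 11.27 and 11.18 in shCPT-1, and 11.11, 10.95 and 11.11 in shCPT-2. Its shCPT-1 arrays were the highest, and it rose there (0.27 ± 0.06, adjusted p = 0.00216), while 0.079 ± 0.06 with ETX and 0.11 ± 0.06 in shCPT-2 did not pass. Tested on their own, 2 other kept probe sets of EGLN1 were called higher in shCPT-2 (0.15 and 0.23), and one of them with ETX (0.51). The shCPT-2 change of the brightest passed without scramble 3 (0.15) or shCPT-2 2 (0.16). Between the knockdowns EGLN1 was lower in shCPT-2 (-0.16 ± 0.06), a call that ended without scramble 1, ETX 1, ETX 2, shCPT-2 2 or any shCPT-1 array. EGLN3, a hydroxylase that HIF induces strongly in many cells, was dim. The brighter of its 2 probe sets, under the array median on 11 arrays, read 6.29, 6.22 and 6.02 in scramble, 6.03, 6.03 and 5.93 with ETX, 5.81, 5.76 and 5.93 in shCPT-1, and 5.48, 5.55 and 5.19 in shCPT-2. The shCPT-2 arrays were low, and in a fit with no filter the changes were -0.77 ± 0.09 in shCPT-2 and -0.35 ± 0.09 in shCPT-1. EGLN2 read 5.59, 5.68 and 5.65 in scramble, 5.41, 5.52 and 5.63 with ETX, 5.58, 5.41 and 5.30 in shCPT-1, and 5.45, 5.65 and 5.41 in shCPT-2, under the array median on every array, and was not called with no filter.

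**Figure D1:**
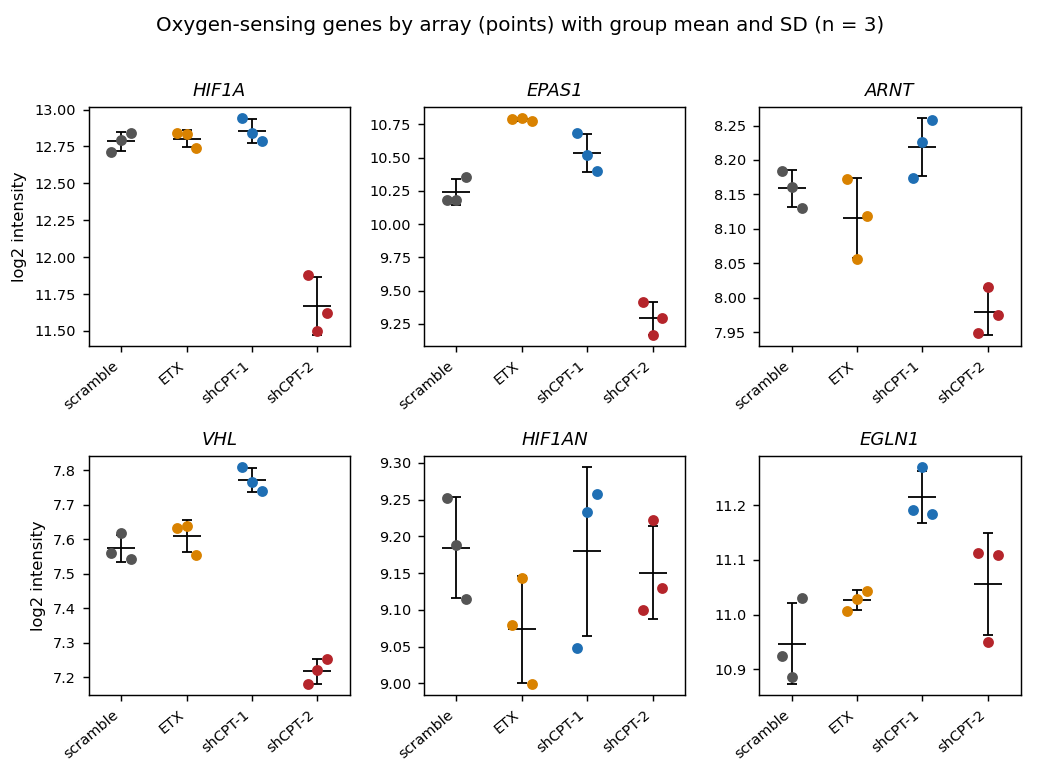
Log2 intensity (vertical axis, scaled separately for each gene) of 6 oxygen-sensing genes in the 4 groups; points are single arrays, the bar is the group mean and the whiskers are 1 SD (n = 3). The shCPT-2 arrays lie below all others for HIF1A (11.50 to 11.88), EPAS1, ARNT and VHL, and all groups overlap for HIF1AN.

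Of the 6 enzymes of collagen and matrix processing, 5 rose in shCPT-1, where 23.1% of all genes were called higher. In shCPT-2, 2 rose and 1 fell, where 25.6% of all genes were called higher and 20.5% lower. LOX, the lysyl oxidase that crosslinks collagen and elastin, read 9.59, 9.55 and 9.67 in scramble, 10.08, 10.06 and 10.07 with ETX, 10.76, 10.79 and 10.74 in shCPT-1, and 10.79, 10.73 and 10.76 in shCPT-2. ETX lay above scramble and both knockdowns above ETX, while the knockdowns overlapped. LOX rose 2.24-fold in shCPT-1 (1.16 ± 0.04, adjusted p = 2.63e-09), 2.23-fold in shCPT-2 (1.16 ± 0.04, adjusted p = 1.86e-09) and 1.38-fold with ETX (0.47 ± 0.04). Its difference between the knockdowns was -0.0028 ± 0.04 (95% interval -0.10 to 0.092, adjusted p = 0.97), and its other kept probe set rose by 1.08 in shCPT-1 and 1.22 in shCPT-2. P4HA1, the catalytic subunit of collagen prolyl hydroxylase, read 10.67, 10.65 and 10.72 in scramble, 10.79, 10.74 and 10.81 with ETX, 11.17, 11.21 and 11.18 in shCPT-1, and 10.16, 10.04 and 10.05 in shCPT-2. Every shCPT-1 array was above, and every shCPT-2 array below, the arrays of scramble and ETX. It rose 1.42-fold in shCPT-1 (0.51 ± 0.05, adjusted p = 3.17e-06) and fell 1.52-fold in shCPT-2 (-0.60 ± 0.05, adjusted p = 5.31e-07).

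The paralogue P4HA2 rose in shCPT-1 (0.47 ± 0.05) and slightly with ETX (0.16 ± 0.05) and in shCPT-2 (0.13 ± 0.05). The ETX call ended without scramble 3 or ETX 2, and the shCPT-2 call without scramble 2, scramble 3, ETX 1, ETX 2, shCPT-1 3, shCPT-2 1 or shCPT-2 3. A dimmer P4HA2 probe set, tested on its own, was called higher in shCPT-2 (0.41) and was not called with ETX (-0.013). LOXL2, a further lysyl oxidase, rose in shCPT-1 (0.33 ± 0.05) and was at -0.027 ± 0.05 in shCPT-2, but its 3 kept probe sets were not alike: their differences ran from -0.25 to 0.33 in shCPT-1, and their mean was not called. Its small rise with ETX (0.15 ± 0.05) ended without scramble 1, scramble 2, ETX 1 or ETX 2. PLOD2, the lysyl hydroxylase of collagen telopeptides, rose with ETX (0.21 ± 0.05) and in shCPT-1 (0.21 ± 0.05), and its difference between the knockdowns did not pass (-0.092 ± 0.05, 95% interval -0.20 to 0.019). A dimmer probe set was called higher in shCPT-2 too (0.40). PLOD1, another lysyl hydroxylase, fell with ETX (-0.19 ± 0.06), a call that ended without scramble 1, scramble 2, ETX 1 or ETX 2. In shCPT-2 PLOD1 was at -0.14 ± 0.06, which passed without scramble 3, shCPT-1 1 or shCPT-2 2.

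CA12, a membrane carbonic anhydrase that regulates extracellular pH, read 8.62, 8.51 and 8.29 in scramble, 8.41, 8.31 and 8.23 with ETX, 9.14, 9.26 and 9.21 in shCPT-1, and 8.02, 7.92 and 7.89 in shCPT-2. Scramble overlapped with ETX, and no other groups overlapped. CA12 rose 1.66-fold in shCPT-1 (0.73 ± 0.08, adjusted p = 1.49e-05) and fell 1.44-fold in shCPT-2 (-0.53 ± 0.08, adjusted p = 0.000148). With ETX it was at -0.16 ± 0.08, which passed without scramble 3 (-0.25). Of its 6 kept probe sets 5 were called higher in shCPT-1, 4 were called lower in shCPT-2, and the remaining values were near 0.

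All 4 mitochondrial members rose in shCPT-1, where 23.1% of all genes were called higher, and 2 of them fell in shCPT-2, where 20.5% were called lower. BNIP3, a mitophagy receptor of the outer mitochondrial membrane, read 11.76, 11.74 and 11.72 in scramble, 11.71, 11.71 and 11.61 with ETX, 12.68, 12.61 and 12.64 in shCPT-1, and 11.85, 11.69 and 11.74 in shCPT-2. The shCPT-1 arrays stood alone above the rest and scramble overlapped with shCPT-2. BNIP3 rose 1.87-fold in shCPT-1 (0.90 ± 0.05, adjusted p = 5.44e-08), and was at 0.02 ± 0.05 in shCPT-2 and -0.066 ± 0.05 with ETX. Its dimmer probe set was called higher in shCPT-2 (0.26) as well as in shCPT-1 (1.29). BNIP3L (NIX), its paralogue, read 10.76, 10.89 and 10.90 in scramble, 11.23, 11.24 and 11.27 with ETX, 11.39, 11.28 and 11.24 in shCPT-1, and 10.40, 10.25 and 10.29 in shCPT-2. ETX and shCPT-1 overlapped above scramble, and shCPT-2 lay below. BNIP3L rose 1.37-fold in shCPT-1 (0.45 ± 0.06, adjusted p = 4.88e-05) and 1.32-fold with ETX (0.40 ± 0.06, adjusted p = 0.000245), and fell 1.45-fold in shCPT-2 (-0.54 ± 0.06, adjusted p = 9.2e-06).

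AK4, an adenylate kinase of the mitochondrial matrix, read 10.52, 10.45 and 10.55 in scramble, 10.28, 10.37 and 10.41 with ETX, 10.99, 10.90 and 10.86 in shCPT-1, and 9.67, 9.66 and 9.61 in shCPT-2. None of its groups overlapped, with shCPT-1 highest and shCPT-2 lowest. AK4 rose 1.33-fold in shCPT-1 (0.41 ± 0.05, adjusted p = 4.6e-05) and fell 1.81-fold in shCPT-2 (-0.86 ± 0.05, adjusted p = 7.4e-08), as did each of its 4 kept probe sets. A small fall with ETX (-0.15 ± 0.05) ended without scramble 1, scramble 3, ETX 1 or ETX 2. FAM162A, a hypoxia-induced mitochondrial protein linked to apoptosis, rose in shCPT-1 (0.48 ± 0.04), fell with ETX (-0.20 ± 0.04) and was at -0.083 ± 0.04 in shCPT-2. Its 4 kept probe sets rose by 0.47 to 0.84 in shCPT-1, the last from a dim probe set kept through its shCPT-1 arrays alone.

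The chromatin enzymes did not share a pattern. KDM3A, a histone demethylase that HIF induces, read 9.70, 9.68 and 9.57 in scramble, 9.38, 9.52 and 9.40 with ETX, 9.39, 9.47 and 9.47 in shCPT-1, and 8.86, 8.93 and 8.87 in shCPT-2. Scramble was highest, ETX and shCPT-1 overlapped below it and shCPT-2 was lowest. KDM3A fell in all 3 comparisons, by 1.7-fold in shCPT-2 (-0.77 ± 0.05, adjusted p = 2.6e-07) and less with ETX (-0.22 ± 0.05) and in shCPT-1 (-0.21 ± 0.05); the shCPT-1 call was lost with the actin covariate (-0.13). KDM4B, another histone demethylase, rose in shCPT-1 (0.27 ± 0.07) and fell with ETX (-0.38 ± 0.07) and in shCPT-2 (-0.32 ± 0.07), and its 5 kept probe sets ranged from -0.38 to 0.0011 in shCPT-2. The ETX and shCPT-2 calls were lost without probe sets that may cross-hybridise. JMJD6, an oxygenase of the same JmjC fold, fell slightly in shCPT-1 (-0.16 ± 0.04) and was the single member called higher in shCPT-2 than in shCPT-1 (0.20 ± 0.04). Among its 3 kept probe sets 2 were called higher and 1 lower in that comparison, and their mean was not called.

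Transcription factors included the largest fall of any member against scramble. BHLHE40 (DEC1), a repressor that HIF induces, read 9.27, 9.33 and 9.20 in scramble, 8.59, 8.48 and 8.38 with ETX, 10.14, 10.04 and 10.07 in shCPT-1, and 8.76, 8.51 and 8.60 in shCPT-2. The shCPT-1 arrays were highest, scramble followed, and ETX and shCPT-2 overlapped below. BHLHE40 rose 1.76-fold in shCPT-1 (0.81 ± 0.07, adjusted p = 2.5e-06) and fell 1.72-fold with ETX (-0.78 ± 0.07, adjusted p = 1.07e-05) and 1.56-fold in shCPT-2 (-0.64 ± 0.07, adjusted p = 1.29e-05). Its difference between shCPT-1 and ETX, 1.60 ± 0.07, was the largest among the 34 members in that comparison. The paralogue BHLHE41 (DEC2), also a repressor, read 8.04, 8.19 and 8.10 in scramble, 8.31, 8.28 and 8.14 with ETX, 7.46, 7.61 and 7.69 in shCPT-1, and 6.39, 5.91 and 6.02 in shCPT-2. Both knockdowns lay under scramble, and 2 of the 3 shCPT-2 arrays were under their array medians. BHLHE41 fell 4.01-fold in shCPT-2 (-2.01 ± 0.11, adjusted p = 2.64e-08), the largest fall among the members, and 1.44-fold in shCPT-1 (-0.52 ± 0.11, adjusted p = 0.0018).

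MXI1, an antagonist of MYC, read 9.16, 9.09 and 8.97 in scramble, 9.59, 9.45 and 9.34 with ETX, 9.65, 9.62 and 9.60 in shCPT-1, and 9.13, 9.12 and 9.08 in shCPT-2. Scramble and shCPT-2 overlapped, and ETX and shCPT-1 lay above them. MXI1 rose in shCPT-1 (0.55 ± 0.06, adjusted p = 2.79e-05) and with ETX (0.39 ± 0.06, adjusted p = 0.000596). RORA, an orphan nuclear receptor, read 6.95, 7.13 and 6.77 in scramble, 7.47, 7.47 and 7.26 with ETX, 7.01, 7.28 and 7.19 in shCPT-1, and 6.56, 6.20 and 6.49 in shCPT-2. Its levels were low, with shCPT-2 near the array medians, and it rose with ETX (0.45 ± 0.11) and fell in shCPT-2 (-0.53 ± 0.11). ZNF395, a zinc finger factor, rose in shCPT-1 (0.43 ± 0.05) and fell in shCPT-2 (-0.24 ± 0.05). Tested on its own, its other kept probe set was not called in shCPT-1 (0.092) and was called lower in shCPT-2 (-0.21).

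CITED2, which competes with HIF for its coactivators and is itself induced by HIF, read 9.74, 9.92 and 10.29 in scramble, 10.96, 11.04 and 11.03 with ETX, 10.40, 10.12 and 10.10 in shCPT-1, and 10.62, 10.26 and 10.57 in shCPT-2. The ETX arrays stood above all others, and scramble spread widely, with replicate 3 above a shCPT-2 array and 2 shCPT-1 arrays. CITED2 rose 2.03-fold with ETX (1.02 ± 0.13, adjusted p = 0.000128) and 1.41-fold in shCPT-2 (0.50 ± 0.13, adjusted p = 0.00802), and the latter was 0.19 and not called with the actin covariate. In shCPT-1 it was at 0.22 ± 0.13, which passed without scramble 3 (0.37). One of its 3 kept probe sets, the dimmest, was at -0.15 with ETX and did not share the rise.

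DDIT4 showed the largest contrast among the members, as read by its 1 kept probe set. DDIT4 (REDD1), an inhibitor of mTOR signalling induced by hypoxia and by other stresses, read 10.43, 10.46 and 10.50 in scramble, 11.16, 11.31 and 11.16 with ETX, 11.70, 11.57 and 11.56 in shCPT-1, and 8.89, 8.50 and 8.72 in shCPT-2. No group overlapped another, in the order shCPT-1, ETX, scramble, shCPT-2 from high to low. DDIT4 rose 2.21-fold in shCPT-1 (1.15 ± 0.08, adjusted p = 6.73e-07) and 1.68-fold with ETX (0.74 ± 0.08, adjusted p = 5.2e-05), and fell 3.4-fold in shCPT-2 (-1.76 ± 0.08, adjusted p = 1.14e-08). NDRG1, a hypoxia-induced gene known as a metastasis suppressor, read 10.52, 10.41 and 10.47 in scramble, 10.52, 10.48 and 10.49 with ETX, 11.10, 10.93 and 10.86 in shCPT-1, and 9.25, 8.87 and 9.10 in shCPT-2. Scramble and ETX overlapped between the high shCPT-1 and the low shCPT-2 arrays. NDRG1 rose 1.41-fold in shCPT-1 (0.50 ± 0.09, adjusted p = 0.000568) and fell 2.63-fold in shCPT-2 (-1.39 ± 0.09, adjusted p = 1e-07). ANKRD37, an ankyrin repeat protein induced by HIF, read 8.21, 8.43 and 8.45 in scramble, 8.19, 8.25 and 8.26 with ETX, 8.67, 8.59 and 8.63 in shCPT-1, and 7.67, 7.50 and 7.55 in shCPT-2. Its shCPT-1 arrays were highest and its shCPT-2 arrays lowest, with changes of 0.27 ± 0.07 and -0.79 ± 0.07 (adjusted p = 0.00599 and 1.26e-06). With ETX it was at -0.13 ± 0.07, which passed without scramble 1 (-0.20).

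STC1, the secreted glycoprotein stanniocalcin-1, read 10.28, 10.37 and 10.37 in scramble, 10.50, 10.50 and 10.43 with ETX, 10.51, 10.42 and 10.42 in shCPT-1, and 9.24, 8.79 and 8.90 in shCPT-2. The shCPT-2 arrays lay far below the rest, and scramble just below ETX and shCPT-1. STC1 fell 2.58-fold in shCPT-2 (-1.37 ± 0.09, adjusted p = 1.7e-07), with its 3 kept probe sets between -1.56 and -0.97 there, and was at 0.11 ± 0.09 in shCPT-1 and 0.13 ± 0.09 with ETX, where a dimmer probe set was called higher (0.46). TMEM45A, a transmembrane protein, read 7.60, 7.57 and 7.60 in scramble, 8.50, 8.56 and 8.36 with ETX, 8.27, 8.28 and 8.24 in shCPT-1, and 8.30, 8.09 and 8.22 in shCPT-2. Scramble was lowest in this gene, ETX highest, and the knockdowns overlapped. TMEM45A rose 1.85-fold with ETX (0.89 ± 0.06, adjusted p = 1.35e-06), 1.6-fold in shCPT-1 (0.67 ± 0.06) and 1.53-fold in shCPT-2 (0.61 ± 0.06). LOX also rose in these groups, and so, by smaller amounts, did the brightest probe set of P4HA2. PPFIA4, a liprin of cell adhesion sites, read 5.68, 5.79 and 5.79 in scramble, 5.51, 5.47 and 5.66 with ETX, 6.37, 6.55 and 6.65 in shCPT-1, and 5.53, 5.78 and 5.35 in shCPT-2. Its 9 arrays outside shCPT-1 were under the array medians, and it rose in shCPT-1 (0.77 ± 0.10), where the filter itself required a higher value. In shCPT-2 it was at -0.20 ± 0.10, which passed without shCPT-2 2.

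ERO1A, the oxidase that forms disulfide bonds in the endoplasmic reticulum, rose in shCPT-1 (0.31 ± 0.06), where each of its 3 kept probe sets was called higher. With ETX its brightest probe set fell (-0.19 ± 0.06) and another rose by 0.40, so no direction is given for it there, and that fall also ended without scramble 1, scramble 2, ETX 2 or ETX 3. In shCPT-2 it was at -0.12 ± 0.06, which passed without scramble 3, while that other probe set was called higher (0.30). WSB1, a substrate receptor of a ubiquitin ligase, was called in no comparison by its brightest probe set, which was at -0.094 ± 0.04 in shCPT-2; its other 2 kept probe sets were called lower there, down to -0.52.

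**Figure D2:**
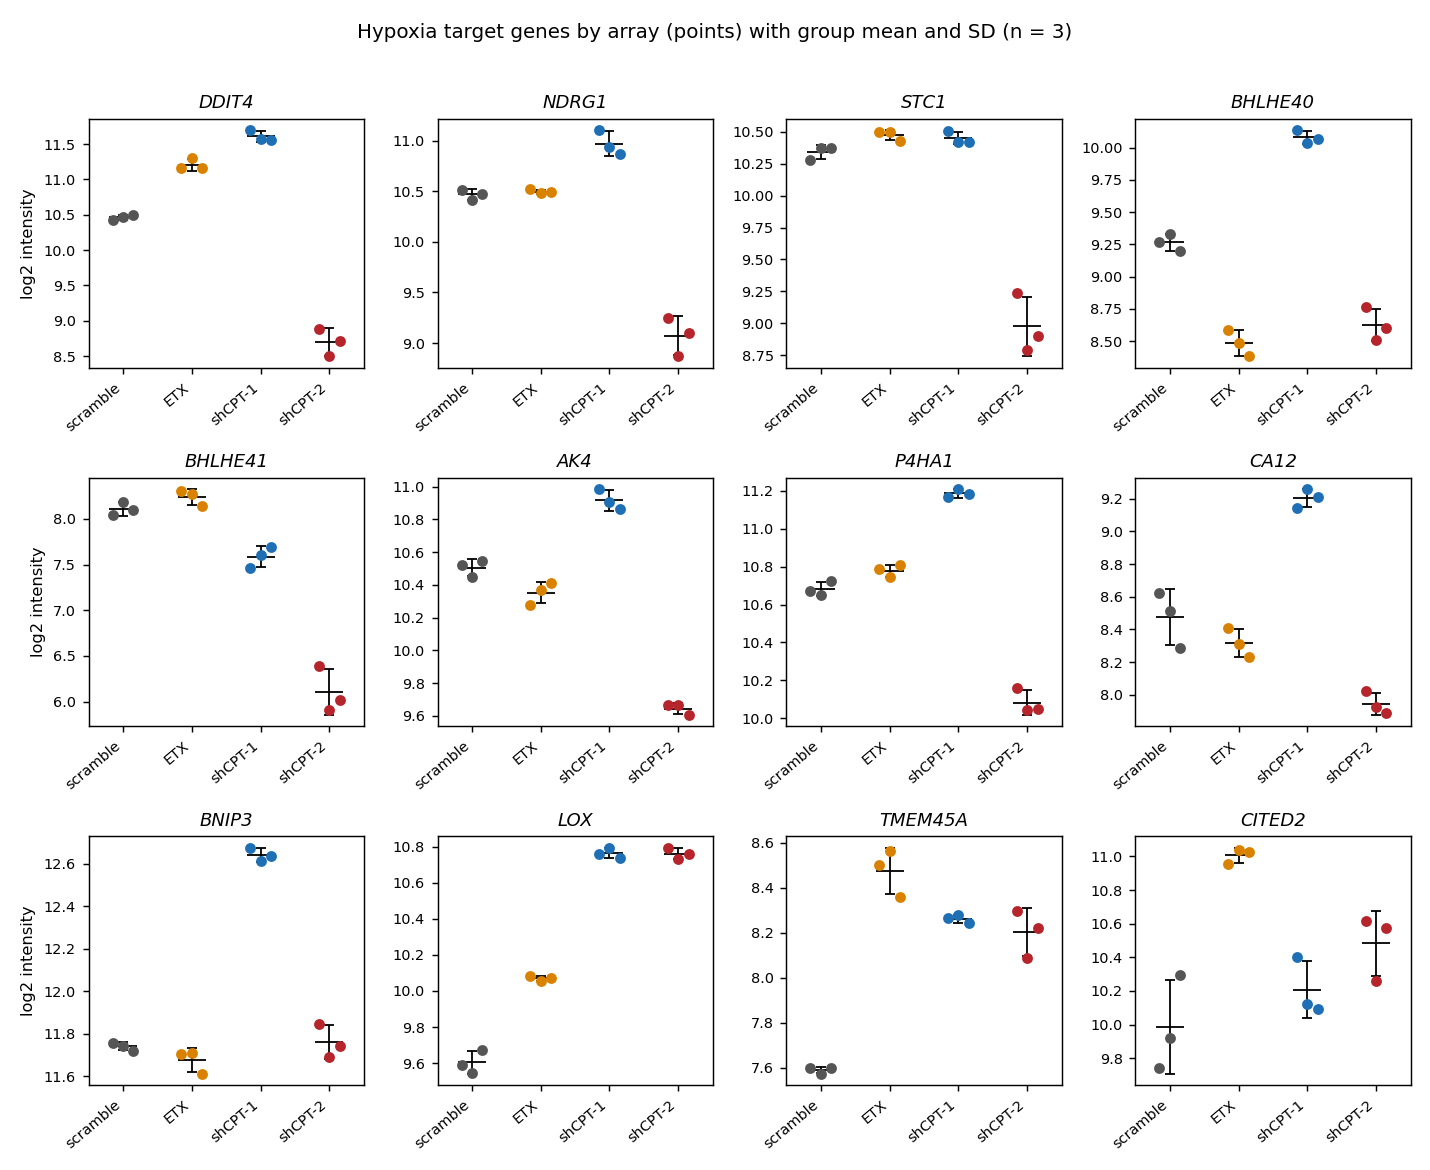
Log2 intensity (vertical axis, scaled separately for each gene) of 12 hypoxia targets in the 4 groups; points are single arrays, the bar is the group mean and the whiskers are 1 SD (n = 3). DDIT4 runs from 8.50 in shCPT-2 to 11.70 in shCPT-1, and LOX and TMEM45A are above scramble in both knockdowns.

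The direct test between the knockdowns does not involve the scramble arrays except in the estimate of spread. Of the 34 members 27 were lower and 1 was higher in shCPT-2 than in shCPT-1, where 17.8% of all genes were called lower and 17.7% higher, and the median difference was -0.58 against 0.0032 for all genes. Without PPFIA4 the count was 26 lower of 33. These counts read the brightest probe set of each gene. Tested on their own, all kept probe sets of AK4, BNIP3, BNIP3L, FAM162A, P4HA2, STC1 and ZNF395 were called lower, and 5 of 6 of CA12. Fewer were called lower for KDM4B (3 of 5), ARNT (2 of 4), ERO1A (1 of 3), LOXL2 (1 of 3) and EGLN1 (0 of 3). The largest differences were those of DDIT4 (7.51-fold, -2.91 ± 0.08, adjusted p = 7.7e-10), NDRG1 (3.71-fold, -1.89 ± 0.09), BHLHE41 (-1.48 ± 0.11), STC1 (-1.48 ± 0.09) and BHLHE40 (-1.46 ± 0.07). AK4 (-1.27 ± 0.05), CA12 (-1.26 ± 0.08), EPAS1 (-1.24 ± 0.08), HIF1A (-1.19 ± 0.08), P4HA1 (-1.11 ± 0.05) and ANKRD37 (-1.06 ± 0.07) each differed by over 1 on the log2 scale as well. DDIT4, NDRG1, BHLHE41, BHLHE40 and P4HA1 each rest on 1 kept probe set ending in _s_at, a kind that may cross-hybridise. The mitophagy receptors BNIP3L (-0.99 ± 0.06) and BNIP3 (-0.88 ± 0.05) came close to that size. The 6 members that did not pass were LOX, PLOD2, TMEM45A, CITED2, HIF1AN and WSB1, with 95% intervals of -0.10 to 0.092 for LOX, -0.19 to 0.073 for TMEM45A, -0.0098 to 0.56 for CITED2 and -0.20 to -0.0017 for WSB1. CITED2 passed as higher in shCPT-2 without shCPT-2 2 (0.39) and with the actin covariate (0.24). PLOD1 was lower (-0.20 ± 0.06), a call that ended without shCPT-1 2, shCPT-1 3 or shCPT-2 1.

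The shCPT-1 and ETX arrays were also compared directly. In shCPT-1, 19 of the 34 members were higher and 5 lower than with ETX, where 22.9% of all genes were called higher and 19.8% lower, and the median difference was 0.19 against 0.021 for all genes. Without PPFIA4 the count was 18 higher of 33. BHLHE40 (1.60 ± 0.07), PPFIA4 (0.98 ± 0.10), BNIP3 (0.97 ± 0.05), CA12 (0.89 ± 0.08), LOX (0.69 ± 0.04) and FAM162A (0.69 ± 0.04) were the furthest above ETX. The value of PPFIA4 is partly a result of the filter, which it passed through its shCPT-1 arrays alone. The members below ETX were CITED2 (-0.80 ± 0.13), BHLHE41 (-0.66 ± 0.11), EPAS1 (-0.25 ± 0.08), TMEM45A (-0.21 ± 0.06) and JMJD6 (-0.18 ± 0.04). The EPAS1 call ended without ETX 1, ETX 2, shCPT-1 2 or shCPT-1 3, and that of TMEM45A without ETX 2. EGLN1 was higher in shCPT-1 (0.19 ± 0.06), which ended without ETX 1 or shCPT-1 2, while MXI1 (0.16 ± 0.06) passed without scramble 3 or ETX 1 and HIF1AN (0.11 ± 0.07) without shCPT-1 1. HIF1A (0.053 ± 0.08, 95% interval -0.13 to 0.24), ARNT (0.10 ± 0.04), RORA (-0.24 ± 0.11), BNIP3L (0.056 ± 0.06), KDM3A (0.012 ± 0.05), PLOD2 (0.0016 ± 0.05), STC1 (-0.023 ± 0.09) and WSB1 (0.019 ± 0.04) did not pass.

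**Figure D3:**
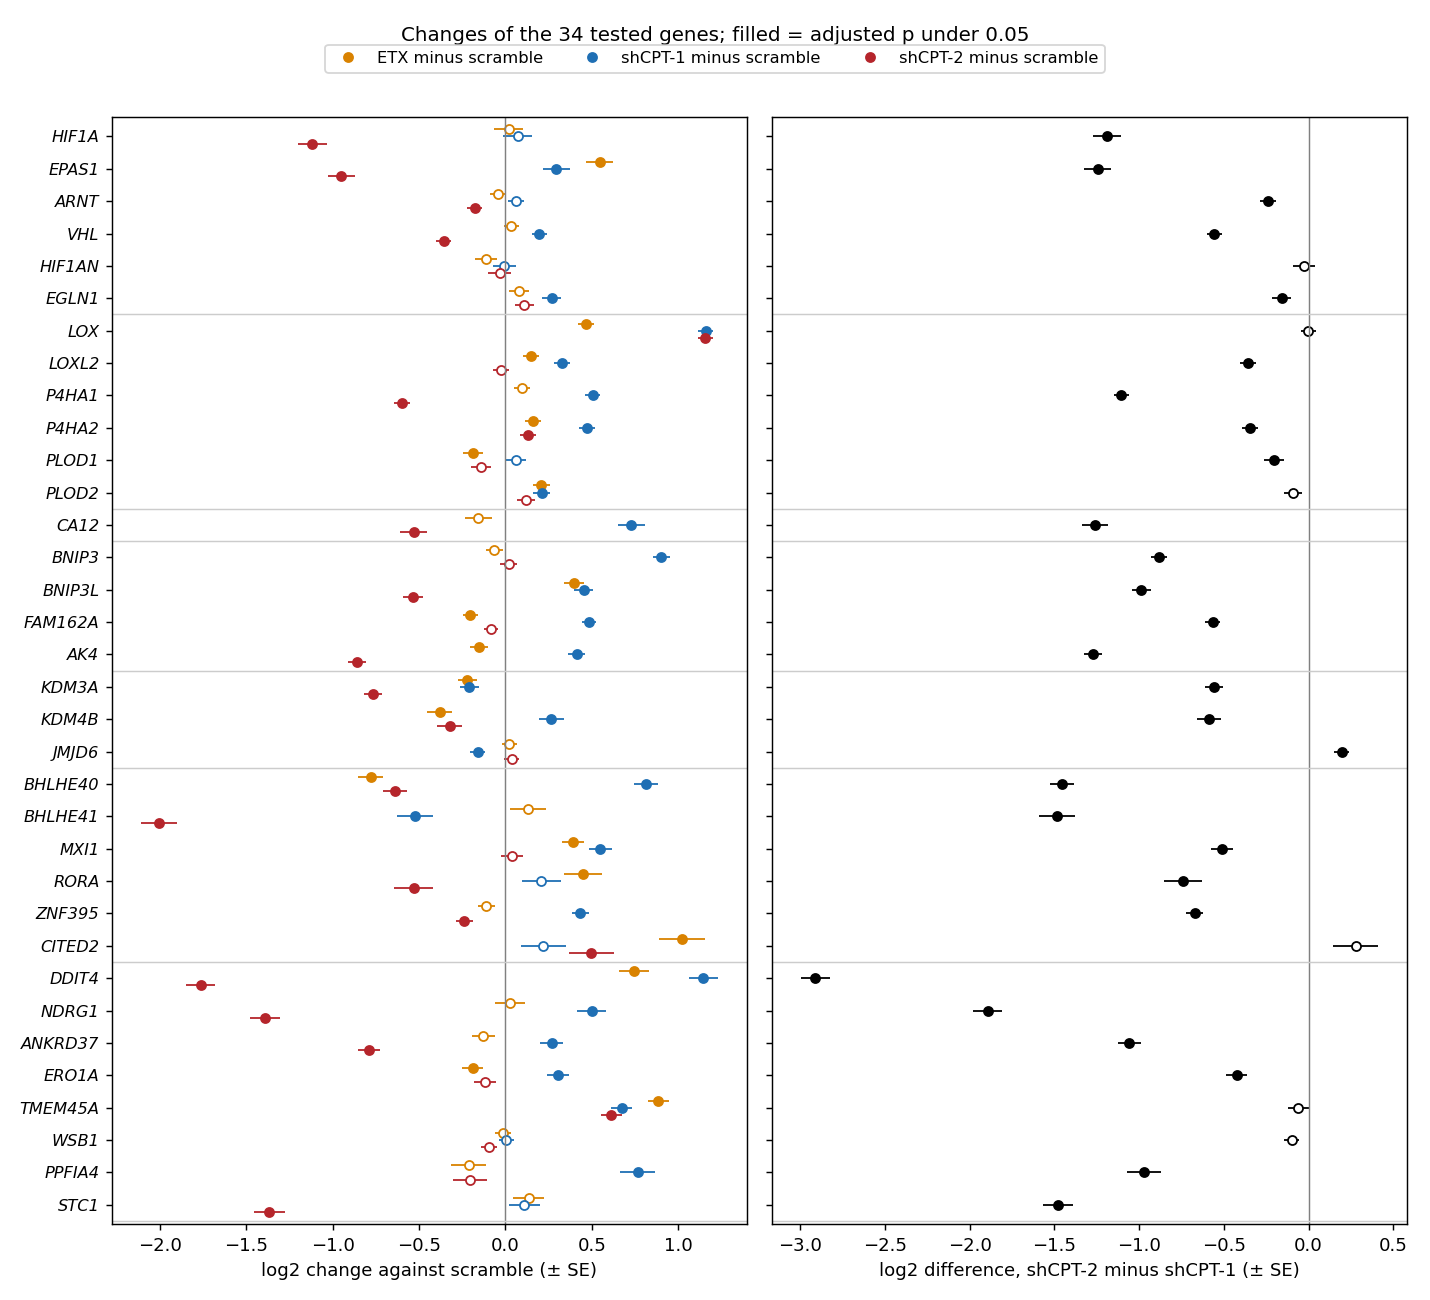
Log2 changes of the 34 tested members, grouped by role with grey lines between groups; left, each treatment minus scramble, and right, shCPT-2 minus shCPT-1. Whiskers are 1 SE of the fit and filled points have an adjusted p under 0.05; on the right 27 filled points lie below 0 and 1 above it.

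Further genes of the pathway and its targets were read from lists. Of 19 tested regulators and cofactors of HIF outside the members, 5 were higher and 1 lower in shCPT-1, 5 and 3 in shCPT-2, and 4 and 3 with ETX, with medians of 0.05, 0.059 and 0.0030. These counts of higher genes are near the shares of all genes, 23.1%, 25.6% and 21.9% in that order. The shares of all genes called lower were 18.0%, 20.5% and 19.4% in the same order. SIAH2, a ubiquitin ligase that acts on the prolyl hydroxylases, rose in shCPT-1 (0.94 ± 0.13), in shCPT-2 (0.91 ± 0.13) and with ETX (0.84 ± 0.13). ARNT2, a paralogue of ARNT, fell in all 3 (-0.44, -0.22 and -0.37 in that order). Of 28 tested hypoxia-induced genes outside the members, 16 were higher and 6 lower in shCPT-1, 8 and 8 in shCPT-2, and 9 and 7 with ETX, and 14 were lower and 2 higher in shCPT-2 than in shCPT-1. The shares of all genes called higher and lower were 23.1% and 18.0% in shCPT-1, 25.6% and 20.5% in shCPT-2, and 21.9% and 19.4% with ETX. Between the knockdowns 17.8% of all genes were lower and 17.7% higher in shCPT-2. Cyclin G2 (CCNG2) fell in shCPT-2 (-1.40 ± 0.08) and ISG20, an exonuclease, rose in shCPT-1 (1.21 ± 0.08). PLIN2, a lipid droplet coat protein, rose with ETX (2.04 ± 0.08), as did the lipoprotein receptor VLDLR (1.18 ± 0.10).

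Among 20 tested glycolytic HIF targets, 4 were called higher and 0 lower with the CPT1 hairpin. Of all genes 23.1% were called higher there, a share near that count, and 18.0% lower. With the CPT2 hairpin 1 was higher and 11 lower, where 25.6% of all genes were called higher and 20.5% lower. With ETX 2 were higher and 7 lower, where 21.9% of all genes were called higher and 19.4% lower. Between the knockdowns 13 were lower and 0 higher in shCPT-2 (17.8% and 17.7% of all genes), with a median difference of -0.24. Against ETX 11 were higher and 0 lower in shCPT-1 (22.9% and 19.8% of all genes). The regulator PFKFB4 fell in shCPT-2 (-1.30 ± 0.05) and PDK1, which restrains pyruvate oxidation, was lower in shCPT-2 than in shCPT-1 (-0.77 ± 0.06). PFKFB4 was also lower with ETX, with means of 9.74 in scramble and 9.09 with ETX. Among 10 tested angiogenic targets, 6 fell and 0 rose in shCPT-1, 7 fell and 1 rose in shCPT-2, and 3 were lower and 3 higher in shCPT-2 than in shCPT-1, with a median difference of 0.092. With ETX 2 of them rose and 2 fell. Of all genes, 18.0% were called lower and 23.1% higher in shCPT-1, and 20.5% lower and 25.6% higher in shCPT-2. With ETX 19.4% were called lower and 21.9% higher, and 17.8% were lower and 17.7% higher in shCPT-2 than in shCPT-1. VEGFA, the endothelial growth factor, was lower in shCPT-2 than in shCPT-1 (-1.95 ± 0.11), whereas endothelin-1 (EDN1, 1.31 ± 0.07) and adrenomedullin (ADM, 0.84 ± 0.06) were higher. The ADM means were below scramble in both knockdowns, at 12.07 in scramble, 10.68 in shCPT-1 and 11.52 in shCPT-2. ANGPTL4, an inhibitor of lipoprotein lipase, rose with ETX (2.21 ± 0.07). No test compared the lists with each other.

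**Figure D4:**
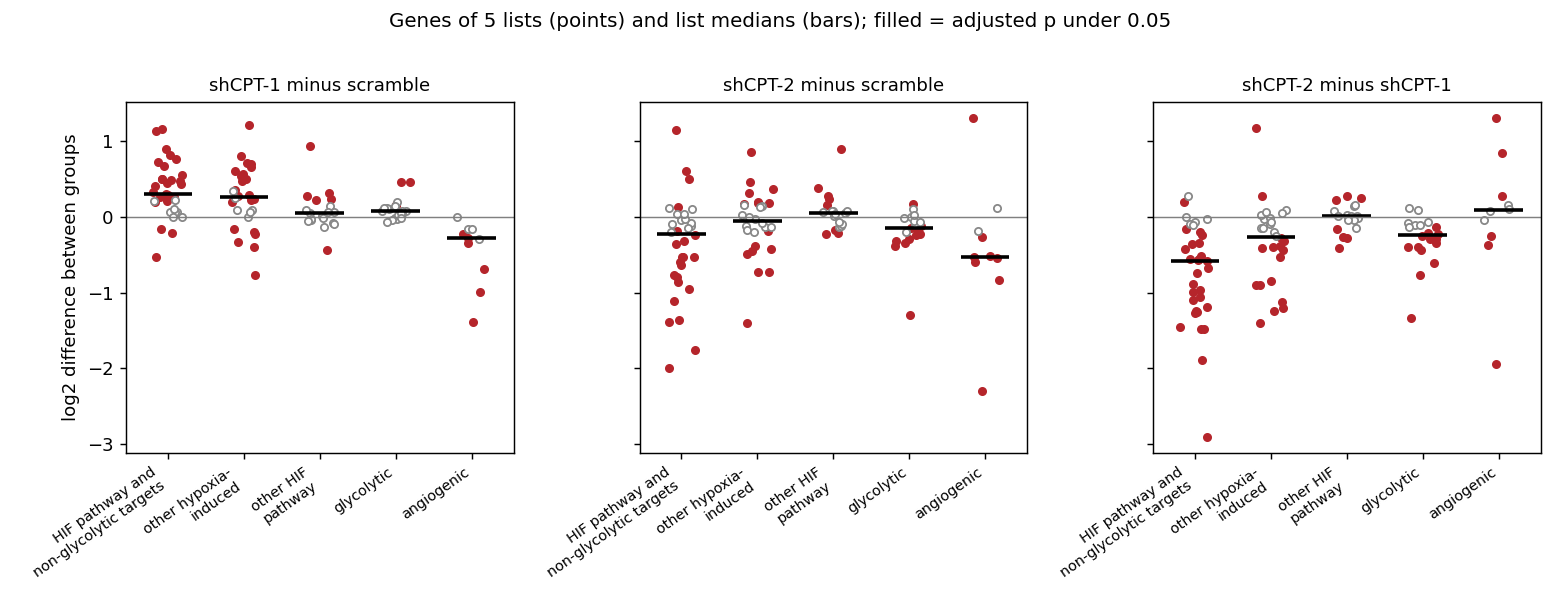
Log2 differences (vertical axis) of the tested genes of 5 lists in 3 comparisons; each point is a gene, filled where the adjusted p is under 0.05, and the black bar is the list's median. In the right panel the member list has a median of -0.58, the glycolytic list -0.24 and the angiogenic list 0.092.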

How the data were processed

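Arrays were single-colour, with biotin-labelled total RNA, per the labels. The deposited values are 1 linear intensity per probe set and array, made with RMA per the submitters' processing notes, a method that corrects background, matches the arrays' distributions and summarises probes, with no version stated. Of 54675 probe sets, 62 were controls, 41091 carried a single symbol, 1801 more than 1 and 11721 no symbol; symbols came from the platform annotation, updated by Entrez ID through RefSeq. Intensities were taken to log2, filtered and reduced to 1 probe set per gene as described above, and fitted with limma 3.58.1 (lmFit and eBayes, 8 residual and 4.12 prior degrees of freedom, no covariates) in R 4.3.3. Tests were two-sided at an adjusted p of 0.05, and an exact test of 3 arrays against 3 cannot pass that threshold, so none was used. Figures used Python 3.11.15 and matplotlib 3.10.9. The steps were tested on simulated data. The members, the lists and the tests were chosen with earlier results of these data known. Members called in a comparison against scramble with a change of at least 0.5, and all oxygen-sensing genes, are given array by array; of other lists, called genes with the largest changes are named. Alternatives were no filter, mean of probe sets, dropping probe sets ending in _s_at, _x_at or _a_at, a second quantile normalization, median centring, a robust eBayes with a trend, a fit of the compared groups alone, a replicate block and leaving out each array. An actin covariate and each kept probe set on its own were added after seeing the data.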

Additional observations from a re-analysis of the deposited data

How the results depend on the processing

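Over all alternatives, the added actin covariate included, there were 3500 values of single members; 3338 kept their direction and side of the threshold, 46 changed sign without being called in either fit, 82 lost a call, 33 gained one and 1 reversed. That value was ERO1A with ETX, 0.0993 with the mean of its probe sets. Counts of called members moved by more than 1.5 times under some settings. The shares of all genes called under each setting are not given here, so these counts have no background beside them. Without probe sets ending in _s_at, _x_at or _a_at, of which those in _s_at and _x_at may cross-hybridise, 20 members were left. Of these, 7 were higher and 3 lower with ETX, 13 higher and 1 lower in shCPT-1, and 8 lower in shCPT-2. There were 16 lower in shCPT-2 than in shCPT-1 and 10 higher in shCPT-1 than with ETX, and 19 passed the F test. Fewer members were tested, and of their 100 values 96 stayed the same, 3 lost a call and 1 changed sign uncalled. DDIT4, NDRG1, BHLHE40, BHLHE41 and P4HA1 were among the members left out, so this setting does not check them. With the mean of probe sets 0 members were higher in shCPT-2 than in shCPT-1. With the actin covariate 4 were lower with ETX, 1 lower in shCPT-1 and 2 higher in shCPT-2 than in shCPT-1. Leaving out each array gave 4 to 7 lower with ETX, 3 to 5 lower in shCPT-1 than with ETX and 1 to 2 higher in shCPT-2 than in shCPT-1. Of the replicate numbers, 8 of 18 pairs of same-numbered arrays had deviations correlated over 0.1 (range -0.456 to 0.328) and 5 of 12 arrays correlated best with their own number. With 3 arrays a group this cannot tell whether same-numbered arrays share a culture or a day, and the labels used here do not say what the number means. With the replicate block, 23 members were higher in shCPT-1 and 18 lower in shCPT-2, as without it, and 26 were lower in shCPT-2 than in shCPT-1. Signal limits EGLN2, EGLN3, PPFIA4, RORA and BHLHE41, which lay near or under the array medians in at least 1 group, and 3 arrays a group limit all values.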

Other observations

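Dimmer probe sets that did not stand for their gene gave further values. A probe set of FAM162A kept through its shCPT-1 arrays had means of 6.01 in scramble, 5.73 with ETX, 6.84 in shCPT-1 and 6.18 in shCPT-2. BHLHE41 had 3 further probe sets under every array median: one had means of 5.62 in scramble and 4.24 in shCPT-2, and the others differed by -0.054 and -0.042 between those groups.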
